A study of Mus musculus with 4 samples.

Results

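The transcripts of 7 homeobox genes of the TALE class were followed in cultured forebrain precursor cells: Meis1, Meis2, Meis3, Pbx2, Pbx3, Tgif1 and Tgif2. Members were taken by name from the platform annotation, as the probe sets annotated to exactly 1 gene and that gene in this list. This gave 16 probe sets for the 7 genes, of 34945 single-gene probe sets for 18193 genes on the array; a probe set is a group of short probes for 1 transcript. Each of the 4 arrays measured RNA from telencephalic neuroepithelial cells of ICR mice, an outbred strain, with no genetic change named for either group. Cells of the first group (2 arrays) were taken at embryonic day 11.5 (E11.5) and cultured for 1 day, and those of the second (2 arrays) at embryonic day 14.5 (E14.5) and cultured for 4 days. Both groups received basic FGF at 10 ng/ml, a mitogen of neural precursors, on a coat of polyornithine and fibronectin. The age of the embryo and the days in culture changed together and cannot be told apart. Nothing in the labels says whether replicate arrays came from separate cultures, so the p-values cover only the array-to-array spread seen here, and that spread may be technical.

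TALE proteins carry a homeodomain with a loop lengthened by a few residues between its first helices, and bind DNA together with other homeodomain proteins. Pbx proteins are partners of Hox and other homeodomain factors; Meis proteins bind Pbx, help to keep it in the nucleus and join these complexes on DNA. Tgif proteins bind a site like that of Meis but act as repressors, and also hold down transcription driven by TGF-beta through Smad proteins and by retinoid receptors. In the embryonic forebrain, Meis2 is known for the ganglionic eminences and the striatal and olfactory neurons born there, and loss of TGIF1 function is a known cause of holoprosencephaly in humans.

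The 2% trimmed mean of the deposited intensities ran from 103 to 252 over the arrays, the E14.5 arrays being the dimmer ones, and every array was scaled to a common trimmed mean of 174. Signals below are such scaled values, and a log2 difference is E14.5 minus E11.5 on the scale of log2(signal + 12.8), where 12.8 is a pseudocount that understates the change of dim probe sets. Each direction is thus relative to the mean level of all probe sets on the array. Without scaling, the median difference of all probe sets was -0.69 in place of -0.01, and 412 probe sets passed as higher and 4793 as lower, against 3012 and 3396 with it. A difference passed the test at an adjusted p under 0.05 in the limma fit over 27022 probe sets. With 2 arrays per group an exact permutation test of 1 probe set cannot give a two-sided p below 0.333. Probes differ in how brightly they bind, so the signal of one probe set is not set against that of another.

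The Pbx genes and Tgif1 fell between the groups, Meis1 rose at 1 probe set, and Meis2, Meis3 and Tgif2 had no probe set that passed the test. All 16 probe sets were bright enough to be tested. Of these 6 were lower at E14.5, 37.5% of the members against 12.6% of all probe sets, and 1 was higher, 6.25% against 11.1%. The 6 lower probe sets belong to 3 of the 7 genes, and probe sets of 1 gene are not independent readings. By their brightest probe set, 13.6% of all genes were lower and 14.3% higher. The arrays of the groups did not overlap at 12 probe sets. Both E14.5 arrays lay below both E11.5 arrays at 9 of them, where 31.9% of all probe sets did, and above them at 3, where 30.1% of all did. The median log2 difference over the 16 probe sets was -0.34. Fewer cells of a type and less RNA per cell cannot be told apart in such bulk samples.

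**Figure D1:**
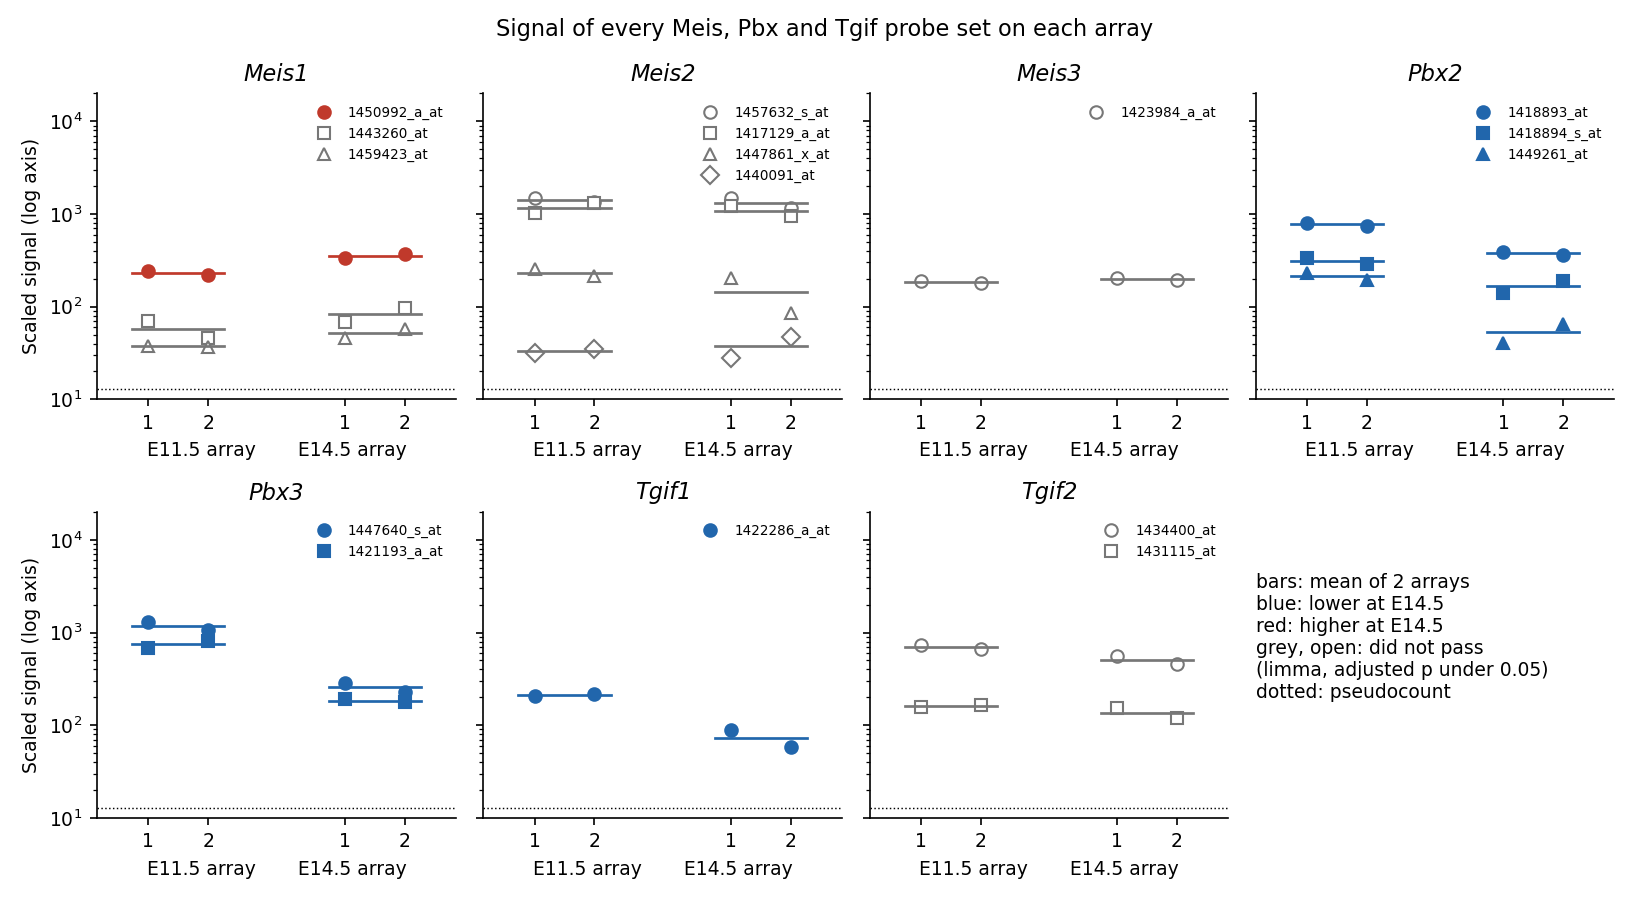
Scaled signal (log axis) of every member probe set on each of the 4 arrays, with 1 panel per gene, 1 symbol shape per probe set and a bar at the mean of each group of 2 arrays. The blue points of Pbx2, Pbx3 and Tgif1 are lower on both E14.5 arrays, the red points of 1 Meis1 probe set are higher, and open grey points mark probe sets that did not pass the test. The dotted line is the pseudocount of 12.8.

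Pbx3, a Pbx factor best known from hindbrain and spinal circuits, had the largest fall of the 7 genes at its brightest probe set. At 1447640_s_at its signal was 1299.7 and 1067 at E11.5, and 283 and 229 at E14.5. All values of the older group lay well below those of the younger, with a spread within each group of at most 1.24-fold. The mean fell from 1183 ± 165 to 256 ± 38.2 (SD, n = 2 arrays per group), a log2 difference of -2.15 ± 0.16 (SE; adjusted p = 1.5e-05, limma). The other probe set, 1421193_a_at, read 673 and 816 at E11.5 and 191 and 177 at E14.5. Its arrays did not overlap either, and its difference was -1.94 ± 0.16 (adjusted p = 2.6e-05, limma). The 95% confidence intervals of the probe sets, -2.52 to -1.79 and -2.30 to -1.58, overlapped. Only 0.992% of all probe sets had a lower difference than the brightest Pbx3 probe set.

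Pbx2, a widely expressed member of the same family, fell at each of its 3 probe sets, all of which are annotated to the same transcript record. The brightest, 1418893_at, read 806 and 750 at E11.5 and 393 and 365 at E14.5. The arrays of a group lay within 1.08-fold of each other, and the groups were far apart by comparison. The mean fell from 778 ± 39.9 to 379 ± 19.6 (SD, n = 2), to 48.8% of its E11.5 value, with a log2 difference of -1.01 ± 0.14 (adjusted p = 0.00064, limma). Probe set 1418894_s_at gave 335 and 292 against 142 and 190, a difference of -0.88 ± 0.19 (adjusted p = 0.0081, limma). The dimmest, 1449261_at, gave 231 and 194 against 40.4 and 65.1, with a difference of -1.80 ± 0.25 (adjusted p = 0.00057, limma). Its 95% interval, -2.35 to -1.25, overlapped that of the brightest, -1.33 to -0.70, only slightly. At none of the 3 did the groups overlap, and averaged over them the difference was -1.23 ± 0.16.

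Tgif1, a repressor that recruits histone deacetylases and corepressors to Smad complexes, was represented by 1 probe set, 1422286_a_at. It read 204 and 219 at E11.5 and 89.7 and 57.5 at E14.5. The younger arrays were close to each other, the older ones 1.56-fold apart, and both of the latter lay below both of the former. The mean fell from 212 ± 9.99 to 73.6 ± 22.8 (SD, n = 2), a log2 difference of -1.40 ± 0.23 (adjusted p = 0.0018, limma). Leaving out E14.5 replicate 2 gave -1.13, and leaving out E14.5 replicate 1 gave -1.67. With a pseudocount at the median of all values it was -1.15; the call held in each of these fits.

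Tgif2, its closest relative, which shares the repressor role, had lower values on both E14.5 arrays at each of its probe sets but did not pass. At 1434400_at the signal was 729 and 667 at E11.5 and 556 and 459 at E14.5. The groups did not overlap, by a margin smaller than for Tgif1. The log2 difference was -0.46 ± 0.15 with an adjusted p of 0.053 (limma), and its 95% interval ran from -0.79 to -0.12. Over 13 alternative fits this probe set passed in 4, with adjusted p-values from 0.033 to 0.28, and 1 of these left out E14.5 replicate 1 (-0.59). The dimmer probe set, 1431115_at, had 157 and 165 against 153 and 120, with a difference of -0.23 ± 0.20 (95% interval -0.68 to 0.22). No test of Tgif1 against Tgif2 was made, so their differences are given side by side only.

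**Figure D2:**
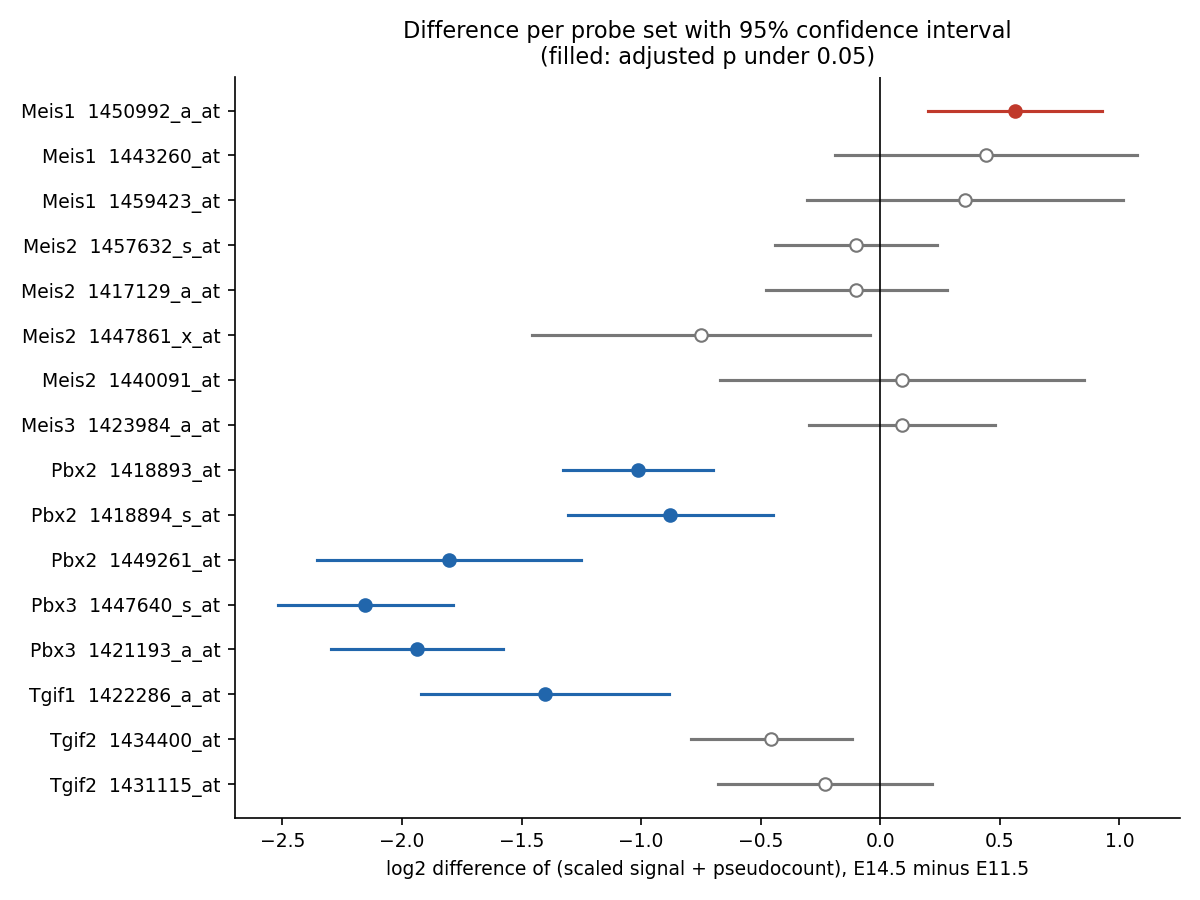
The log2 difference of each member probe set (horizontal axis, E14.5 minus E11.5) with its 95% confidence interval from limma; filled points passed the test. The 5 Pbx probe sets lie from -2.15 to -0.88, the Meis2 and Meis3 probe sets from -0.75 to 0.09, and the Meis1 probe sets from 0.35 to 0.56.

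The sequences before the annotated starts of Pbx2 and Tgif1 are shown because these genes fell together and the table of RefSeq promoters (GRCm38.p6) holds them. Matched by symbol, 6 of the 7 members were in that table, all but Pbx3. The 250 bases before each start were searched on both strands for TGACAG, a site bound by Meis, for TGTCA, a site bound by Tgif, and for TGATTNAT, a site bound by Pbx with Hox. The first contains the reverse complement of the second, so each match of TGACAG is also one of TGTCA. Capitals mark a match in the 5′ to 3′ sequences that follow, Tgif1 being shown at the most upstream of its 5 starts.
Pbx2, chr17:34592009-34592258, plus strand: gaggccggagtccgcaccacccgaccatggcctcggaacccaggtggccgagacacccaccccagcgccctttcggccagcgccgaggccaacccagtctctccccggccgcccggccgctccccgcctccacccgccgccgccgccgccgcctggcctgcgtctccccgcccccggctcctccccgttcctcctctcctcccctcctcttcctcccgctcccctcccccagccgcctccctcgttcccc
Tgif1, chr17:70853533-70853782, minus strand: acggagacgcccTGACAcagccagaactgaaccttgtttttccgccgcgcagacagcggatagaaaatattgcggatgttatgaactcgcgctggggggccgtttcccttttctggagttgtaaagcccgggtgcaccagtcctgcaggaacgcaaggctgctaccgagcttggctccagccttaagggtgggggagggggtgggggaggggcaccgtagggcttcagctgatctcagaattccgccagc
The Pbx2 sequence, with a GC content of 77.6%, held no match. The Tgif1 sequence held 1 TGTCA match, on the reverse strand, its first base at position -238 from the start. Over the 10 starts of the 6 genes, 5 of them of Tgif1, 4 held TGTCA and 1 held TGATTNAT. The TGTCA matches lay before starts of Tgif1 and Meis3 only, and the TGATTNAT match before a start of Tgif1. Of all 32851 promoters in the table, 40.0% held TGTCA and 2.82% held TGATTNAT. None of the 10 held TGACAG, which 15.9% of all promoters held. These matches describe the letters in the window and say nothing of binding.

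Of the 8 Meis probe sets 1 passed, as higher, which is 12.5% and near the 11.1% of all probe sets. Their median log2 difference was 0.09. All 5 Pbx probe sets, which belong to 2 genes, passed as lower, where 12.6% of all probe sets did. The median of these 5 was -1.80. Meis1, a cofactor of Pbx and Hox also known from blood-forming cells, read 245 and 222 at E11.5 and 332 and 371 at E14.5 at its brightest probe set, 1450992_a_at. Both E14.5 arrays lay above both E11.5 arrays. The mean rose from 234 ± 16.6 to 352 ± 27.5 (SD, n = 2), a log2 difference of 0.56 ± 0.16 (adjusted p = 0.030, limma). This call was lost in 5 of 13 alternative fits. These were the fits with E11.5 replicate 2 left out (0.50), with E14.5 replicate 2 left out (0.49), with no variance trend, with no filter (adjusted p = 0.0503, limma) and with no scaling. Averaged over its 3 probe sets Meis1 had a difference of 0.45 ± 0.19 and did not pass. Without scaling its sign turned (-0.18), against a median of -0.69 for all probe sets in that fit.

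The other Meis1 probe sets had differences of the same sign with scaling and of the opposite sign without it. At 1443260_at the signal was 69.3 and 45.8 at E11.5 and 69.1 and 95.6 at E14.5, so the groups overlapped (0.44 ± 0.28; -0.21 without scaling). At 1459423_at it was 37.9 and 36.9 against 45.9 and 57.3, with no overlap but signals near the lower limit for testing of 27.3 (0.35 ± 0.30; -0.25 without scaling). Neither passed the test.

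Meis2, a cofactor of Pax6 and Dlx2 in neurons of the olfactory bulb, had bright signals that overlapped between the groups. At 1457632_s_at these were 1495 and 1341 at E11.5 and 1507 and 1156 at E14.5, and at 1417129_a_at 1022 and 1307 against 1231 and 944. The log2 differences were -0.10 ± 0.15 and -0.10 ± 0.17, with 95% intervals of -0.44 to 0.24 and -0.48 to 0.28. In terms of fold, these bounds are 0.738 to 1.18 and 0.719 to 1.21, so at these probe sets a change as large as the 2-fold fall of Pbx2 lay outside the interval. Their signs turned when single arrays were left out (up to 0.09), and both were at -0.87 without scaling, where the median of all was -0.69. Probe set 1440091_at, with signals from 28.0 to 46.8, was close to the lower limit for testing (0.09 ± 0.34).

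The remaining Meis2 probe set, 1447861_x_at, read 254 and 213 at E11.5 and 205 and 85.1 at E14.5. The groups did not overlap, but the E14.5 arrays were 2.41-fold apart, replicate 2 being the low one. Its difference was -0.75 ± 0.32 (adjusted p = 0.12, limma). Leaving out that array gave -0.17, and leaving out E14.5 replicate 1 gave -1.33, which passed. It also passed without E11.5 replicate 2 (-0.87), without scaling and with the replicate number as a block. The x in its name marks a probe set in which some probes also match other transcripts.

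Meis3, known from the patterning of the hindbrain, had 1 probe set with almost equal signals, 191 and 181 at E11.5 and 204 and 195 at E14.5. The groups did not overlap, yet the difference of 0.09 ± 0.17 was below its error, and it was -0.64 without scaling. Its 95% interval of -0.30 to 0.48 spans 0.814-fold to 1.40-fold.

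**Figure D3:**
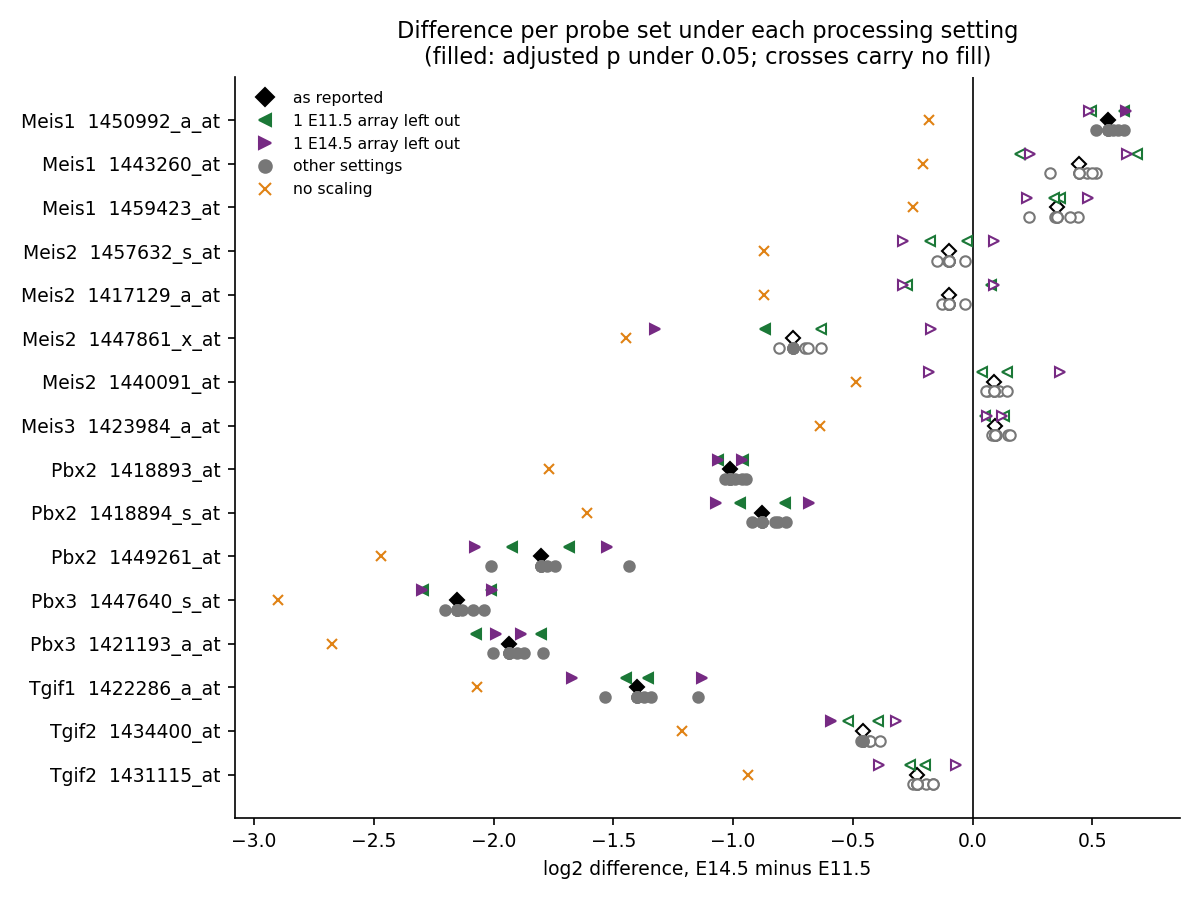
The log2 difference (horizontal axis) of each member probe set as reported (diamonds), with 1 array left out (triangles), under other processing settings (circles) and without scaling (crosses); filled symbols passed the test, and crosses carry no fill. The Pbx2, Pbx3 and Tgif1 probe sets stay below -0.68 throughout, while those of Meis2 range from -1.45 to 0.36 and those of Meis3 from -0.64 to 0.16, and those of Meis1 lie below 0 only without scaling.

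Among the other TALE homeobox genes, 7 of 10 with a probe set were measured, where a gene is represented by its brightest tested probe set. Of these 1 was higher and 6 did not pass, while of all 12952 genes 14.3% were higher and 13.6% lower. The list's median difference of 0.26 rested on single arrays: it was -0.02 without E14.5 replicate 2 and 0.50 without E14.5 replicate 1. It was 0.06 without a filter, 0.07 with probe sets averaged and -0.49 without scaling. Irx1, an Iroquois factor of neural patterning, rose from a mean of 26.1 to 95.9 (1.52 ± 0.33, adjusted p = 0.0075, limma), a call lost without scaling (0.89). The E11.5 mean of Irx1 lay below the limit for testing of 27.3, so it was tested through its E14.5 signal. With the filter at the 60th percentile Irx1 was not tested and no gene of the list passed. The Meis relatives Pknox1, also called Prep1, and Pknox2, which like Meis bind Pbx, did not pass. Pknox1 had means of 227 and 215 (-0.06 ± 0.20) and Pknox2 of 356 and 442 (0.26 ± 0.21); Pknox2 passed as higher without E14.5 replicate 1 (0.61). Pbx4, a Pbx gene of the testis, had means of 43.2 and 46.0 (0.07 ± 0.29). Irx3 (0.38 ± 0.28), Irx5 (0.35 ± 0.41) and Irx6 (-0.19 ± 0.36) were dim as well, and Irx2, Irx4 and Mkx lay below the limit for testing.

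Hox genes, the classical partners of Pbx, are normally silent in the telencephalon. Of 33 with a probe set 10 were bright enough to be tested, and none passed in the limma fit, 1 of them reaching an unadjusted p under 0.05 (Hoxa5, 0.55 ± 0.22). Without E14.5 replicate 1 there was 1 higher, and without E11.5 replicate 1 there was 1 lower. Their median difference was -0.02, and from -0.07 to 0.10 with 1 array left out.

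Genes of the lateral ganglionic eminence and striatal lineage, a list that holds the Meis partners Pax6, Dlx1 and Dlx2, were mostly lower. Of 17 measured genes 14 were lower at E14.5, 82.4% against the 13.6% of all genes, and 3 did not pass; the median was -1.79, and -1.31 without E14.5 replicate 2. Isl1, a LIM-homeodomain factor of striatal neurons, fell from 501 to 2.52, a mean below the pseudocount on which the size depends (-5.07 ± 0.23). Dlx5 fell from 671 to 74.1 (-3.00 ± 0.21) and Sp8, a zinc finger factor of olfactory interneurons, from 360 to 46.9 (-2.69 ± 0.26). The partners Dlx1 (-1.72 ± 0.34), Dlx2 (-1.58 ± 0.31) and Pax6 (-0.83 ± 0.17) fell too. These values stand beside the differences of -0.10 at both bright Meis2 probe sets. The other Meis2 probe sets had -0.75 (1447861_x_at) and 0.09 (the dim 1440091_at), and neither passed. The difference between Meis2 and the list was not tested.

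Of 21 measured genes of TGF-beta signalling, Smads and corepressors that work with Tgif, 8 were lower, 38.1% against 13.6% of all genes, and 13 did not pass, with a median of -0.32. The activin receptor Acvr2b fell from 427 to 162 (-1.33 ± 0.16), the TGF-beta receptor Tgfbr1 from 1287 to 681 (-0.91 ± 0.13) and Smad3, which carries the signal to the nucleus, from 438 to 229 (-0.90 ± 0.16). The count of lower genes was 5 without E14.5 replicate 1, 5 without E14.5 replicate 2, 5 with arrays scaled to a common median, and 4 without a filter or without the variance trend. Without E14.5 replicate 1 there was also 1 higher. Of 8 measured genes of retinoic acid synthesis, breakdown and reception, 1 was lower and 1 higher. Each is 12.5% of the list, near the 13.6% lower and 14.3% higher of all genes, and the list's median was -0.05. The binding protein Crabp2 fell from 248 to 10.3, below the pseudocount (-3.58 ± 0.34), and the reductase Dhrs3, a known retinoic acid target, rose from 17.6 to 111 (2.17 ± 0.41). Its E11.5 mean lay below the limit for testing of 27.3, so it was tested through its E14.5 signal. The difference of Dhrs3 was 1.51 without E11.5 replicate 1 and 2.82 without E11.5 replicate 2, and at the 60th percentile filter it was not tested and no gene was higher. The count of lower genes was 2 without E14.5 replicate 1, without scaling and with the replicate number as a block.

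**Figure D4:**
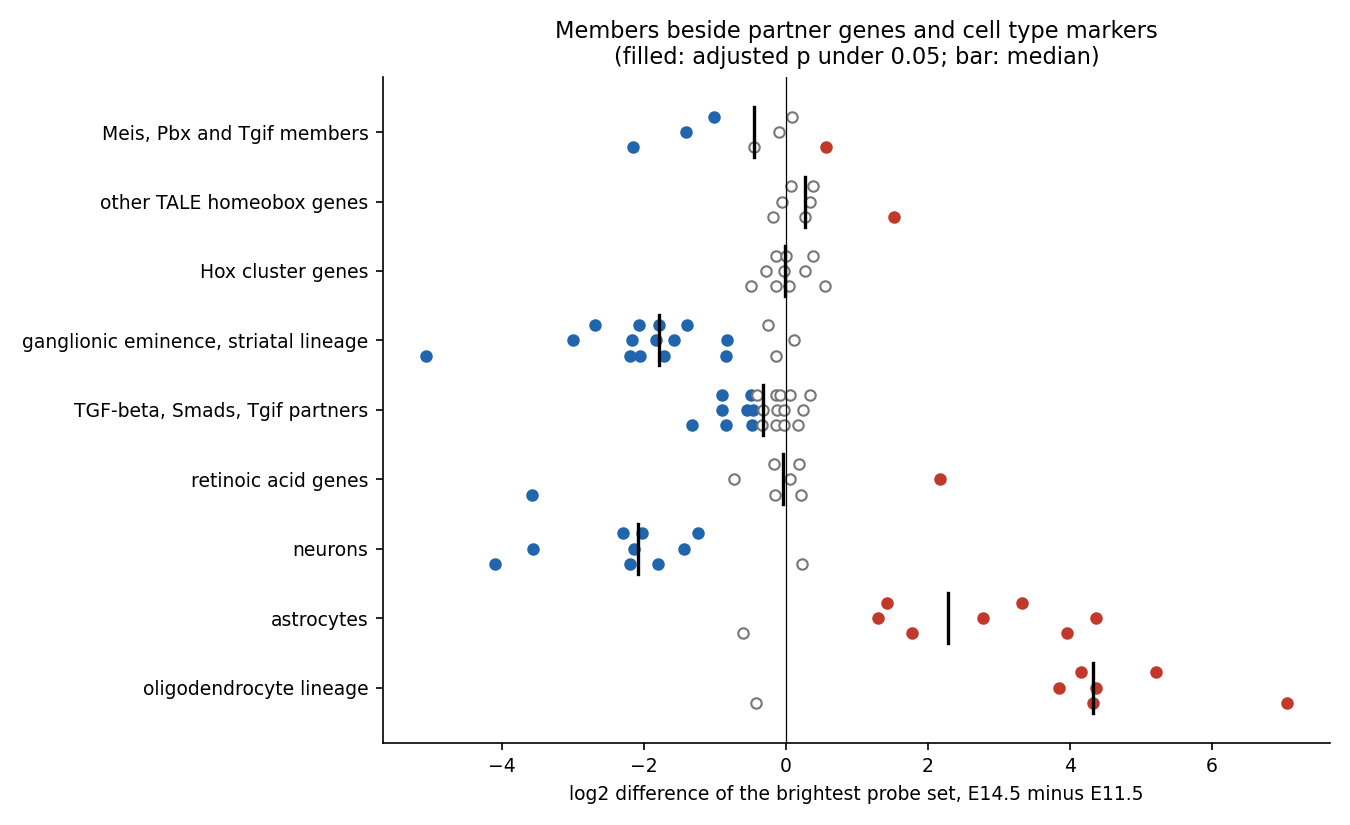
The log2 difference (horizontal axis, E14.5 minus E11.5) of each gene's brightest probe set, for the 7 members, the lists of related and partner genes and 3 lists of cell type markers; filled points passed the test and the bar is the median of a list. The ganglionic eminence list (median -1.79) and the neuronal markers (-2.09) lie to the left, and the astrocyte (2.28) and oligodendrocyte lists (4.32) to the right.

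Markers of several cell types differed between the groups along with the members. Neural progenitor markers, which check the label of the cells, were all measured, with a summed signal of 20929 to 22716 on the E11.5 arrays and 30387 to 31615 on the E14.5 arrays. Of these 4 were higher and 2 lower, and without scaling none was higher and 3 were lower. Neuronal markers were lower for 9 of 10 and their sum was 14586 to 15026 at E11.5 against 5168 to 5266 at E14.5. Astrocyte markers were higher for 7 of 8 (sum 2761 to 3057 against 11483 to 15560) and markers of the oligodendrocyte lineage for 6 of 7 (sum 799.9 to 1075 against 16863 to 19190). Over all genes 14.3% were higher and 13.6% lower. Among the higher markers, Gfap, Aqp4, S100b, Cspg4 and Gpr17 had E11.5 means below the limit for testing of 27.3. They were tested through their E14.5 signal. The part of the marker shifts in the falls of Pbx2, Pbx3 and Tgif1 was not tested.

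Markers of other cells that a telencephalic dissection could carry along were measured as well. Microglia and macrophage markers were higher for 6 of 7 measured (sum 172 to 218 against 1343 to 1389.7), while Aif1 lay below the limit for testing. Among the higher ones, C1qa, C1qb, C1qc and Ptprc had E11.5 means below that limit and were tested through their E14.5 signal. Of 8 endothelial and pericyte markers 4 were measured, with a median of -0.19, and the defining Pecam1, Cdh5 and Tek lay below that limit. Only Plvap was higher, from a mean of 10.0, also below that limit, to 91.2. Kdr (-0.59), Pdgfrb (-0.35) and Rgs5 (-0.02) had negative differences and did not pass. The rise in the sum of those measured (139 to 187 against 200.1 to 206) thus came from Plvap. Over all genes 14.3% were higher and 13.6% lower. Erythroid markers had 2 of 4 measured lower (sum 417 to 858 against 124 to 133), and 1 of 4 without the variance trend. Their median was -0.71, and ran from -1.01 to -0.42 with 1 array left out. The lower ones, Hbb-y (511 to 12.3) and Hba-x (51.4 to 8.87), had E14.5 means below that limit and below the pseudocount. They were tested through their E11.5 signal. Meningeal and mesenchymal markers had 3 of 7 lower (sum 1238 to 1244 against 648 to 743) and choroid plexus and ependymal markers 1 of 6 (sum 500.4 to 557 against 221 to 275), 2 without E14.5 replicate 1. Their part in the differences of Meis1 and of the other members was not tested.

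For the members that changed at least 2-fold, the genes with the nearest pattern were found among 12120 genes by the distance between log2 signals over the 4 arrays, each centred on its mean. Nearest to Pbx3 were Mbnl3, Ints6 and Slc1a5, at distances of 0.08 to 0.13. Nearest to Pbx2 were Tfap4, Hat1 and Celsr2, at 0.05 to 0.06, and nearest to Tgif1 were Rpa2, Camkv and Zfp503, at 0.02 to 0.08. Zfp503 is itself a gene of the striatal list, with signals of 196 and 217 at E11.5 and 84.7 and 58.9 at E14.5. All 9 genes had lower signals on both E14.5 arrays, which follows from picking them by their nearness to members that fell. With 4 arrays the measure separates few patterns.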

How the data were processed

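The authors deposited linear intensities, 1 value for each probe set of an array, made with GCOS per the submitters' processing notes (version and settings: not given in the sources used here). Per the labels' protocols, 5 µg of total RNA was copied with an oligo-dT T7 primer and labelled as biotin cRNA. Of 45101 probe sets 64 controls were set aside. Trimmed means differed by 2.43-fold, over the 5% limit, so each array was multiplied by 1 factor (0.691 to 1.68). Probe sets with a mean at or above the 40th percentile (27.3) were tested, and the pseudocount was the 25th percentile of all scaled values (12.8). Tests used limma 3.58.1 in R 4.3.3 (lmFit, eBayes with trend, 2 residual and 7.99 prior degrees of freedom) with Benjamini-Hochberg adjustment over 27022 probe sets. The fit was also run on simulated data with known shifts and independent normal noise. Such data cannot check the scaling or whether the replicates are technical. Of 2 arrays per group, same-numbered ones did not deviate together (r = 0.004). All 16 member probe sets matched the RefSeq gene table by gene ID. The members and lists were chosen with earlier results of these data known. Named were all members, up to 3 called genes of each list with the largest differences, all measured TALE relatives and the 3 nearest patterns. Chosen after their values were seen were Hoxa5, Dlx1, Dlx2, Pax6 and the cell type markers named.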

Additional observations from a re-analysis of the deposited data

How the results depend on the processing

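The falls of Pbx2, Pbx3 and Tgif1 passed the test in all 13 alternative fits, from -0.68 to -2.90 over their 6 probe sets. The count of lower members ran from 6 to 8. The count of higher members, 1 as reported, was 0 without a filter, without scaling and without the variance trend, and 0 to 1 with 1 array left out. Of all 27022 tested, against 3012 and 3396 as reported, 1919 passed as higher and 2097 as lower without the variance trend, and 412 as higher without scaling. Replicate numbers did not pair the arrays; with the replicate number as a block, 3312 probe sets were higher and 3861 lower, and 8 members were lower, adding Tgif2 at 1434400_at (-0.46) and Meis2 at 1447861_x_at (-0.75). Signs turned without scaling at Meis1 1450992_a_at (-0.18), 1443260_at (-0.21) and 1459423_at (-0.25), Meis2 1440091_at (-0.49) and Meis3 (-0.64). They also turned for Meis2 without E14.5 replicate 2 at 1457632_s_at (0.089), 1417129_a_at (0.090) and 1440091_at (-0.18), and without E11.5 replicate 2 at 1417129_a_at (0.076). With 1 array left out these 3 ran from -0.29 to 0.089, -0.29 to 0.090 and -0.18 to 0.36. None of the turned values passed. In all, 9 of 205 refitted member values turned sign, 5 lost a call, 1 of which also turned sign, and 8 gained one; of 210 list values 32 moved. The filter at the 60th percentile left out Meis1 1443260_at and 1459423_at and Meis2 1440091_at. The causes were not tested. The number of arrays limits the precision of every value.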
